A study of Mus musculus with 8 samples.

Results

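Transcript levels were followed for 34 genes, out of 55335 in the table, that encode the selenoproteins or the machinery that makes and uses selenocysteine. The genes were taken by name: 24 selenoprotein genes, and 10 genes for the synthesis, insertion and recycling of selenocysteine, the uptake of selenium or the binding of selenium. RNA was sequenced from MC3T3-E1, a cell line of pre-osteoblasts from mouse calvaria, after 3 days with a scaffold. The scaffold was TABS (Trio-Active bone scaffold, the submitters' name) for 4 libraries, and HA (hydroxyapatite carrying magnesium as dopant), the reference, for the other 4. Neither the make-up of TABS nor the selenium content of the scaffolds or the medium is stated in the labels. No library came from cells without a scaffold, so higher or lower in TABS is relative to HA. The labels do not say whether the 4 libraries were separate cultures, so p-values reflect the spread among these libraries alone, and that spread may be technical. The TABS libraries are named with an H and the HA libraries with an L, and the scaffold of a library cannot be checked from any gene. In these bulk samples, fewer cells of a type and less RNA per cell cannot be told apart.

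Selenoproteins contain selenocysteine, an amino acid encoded by UGA, which is otherwise a stop codon. A hairpin in the mRNA's 3′ end, the SECIS element, its binding protein SECISBP2, the elongation factor EEFSEC and a dedicated tRNA let the ribosome read UGA as selenocysteine. The tRNA is first charged with serine, which PSTK phosphorylates and SEPSECS converts to selenocysteine with selenophosphate made by SEPHS2, itself a selenoprotein. A UGA read as a stop upstream of the last exon junction can expose an mRNA to nonsense-mediated decay, and in rodents a low selenium supply lowers the Gpx1, Selenow, Selenoh and Msrb1 mRNAs more than most other selenoprotein mRNAs. Known selenoproteins include enzymes that remove peroxides and enzymes that activate or inactivate thyroid hormone.

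The UGA codons of 8 selenoprotein genes are shown because the results below describe these genes and where their UGA lies. Each line gives the coding strand 5′ to 3′ from GENCODE M21 transcripts (GRCm38), 15 bases either side of the codon. Capitals mark the UGA, written TGA, and, where present, a TGT cysteine codon 3 codons before it, which in thioredoxin-fold selenoproteins encodes the partner of selenocysteine in the redox-active pair.
Selenow: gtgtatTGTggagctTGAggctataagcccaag
Selenoh: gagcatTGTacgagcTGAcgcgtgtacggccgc
Selenom: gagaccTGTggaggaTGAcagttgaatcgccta
Selenot: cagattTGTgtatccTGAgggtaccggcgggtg
Gpx1: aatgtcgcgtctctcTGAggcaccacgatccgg
Gpx4: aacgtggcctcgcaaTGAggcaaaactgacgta
Sephs2: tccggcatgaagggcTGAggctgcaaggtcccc
Selenoo: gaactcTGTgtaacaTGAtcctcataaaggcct
In Selenow the TGA (chr7:15920464-15920466, minus strand) was codon 13 of 88 and lay in exon 2 of 6. In Gpx1 (chr9:108339451-108339453, plus strand) it was codon 47 of 201, in Selenoh (chr2:84670381-84670383, minus strand) codon 38 of 116, and in Selenom (chr11:3516273-3516275, plus strand) codon 48 of 145. In Selenoo (chr15:89099975-89099977, plus strand) it was codon 665 of 667, and in Sephs2 (chr7:127273731-127273733, minus strand), which has a single exon, codon 63 of 452.

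On TABS 5 selenoprotein genes were lower and 2 higher than on HA, and 1 machinery gene was higher. Levels were deposited as FPKM, fragments per kilobase scaled to the library, and a gene was tested with at least 1 FPKM in at least 4 of 8 libraries. A gene was called when limma's adjusted p, Benjamini-Hochberg over all 11280 tested genes, was under 0.05. Of the 18 selenoprotein genes tested, 5 fell (Selenow, Selenoh, Selenom, Gpx1 and Txnrd3), 2 rose (Sephs2 and Selenoo) and 11 did not pass. Over all tested genes 2.90% were called lower and 4.49% higher (327 and 506 genes, or 239 and 915 after rescaling to TPM). Of the 10 machinery genes, all tested, 0 fell, 1 rose (Lrp8) and 9 did not pass, beside 7.38% of all tested genes called in either direction. All TABS libraries lay below all HA libraries in 5 tested selenoproteins (7.15% of all tested genes) and above them in 3 tested selenoproteins and 1 machinery gene (10.8% of all tested genes). The median log2 fold change, TABS minus HA in units of log2(FPKM + 1), was -0.04 over the tested selenoproteins, 0.04 over the machinery and 0.01 over all tested genes. The fold changes of selenoproteins ran from -1.50 to 0.41 and those of the machinery from -0.16 to 0.52. The 5 lower selenoproteins became 3 without TABS 3 or TABS 4 and 2 with no filter on low FPKM, and the 2 higher became 4 after rescaling to TPM, with Txnrd2 and Selenok added.

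**Figure D1:**
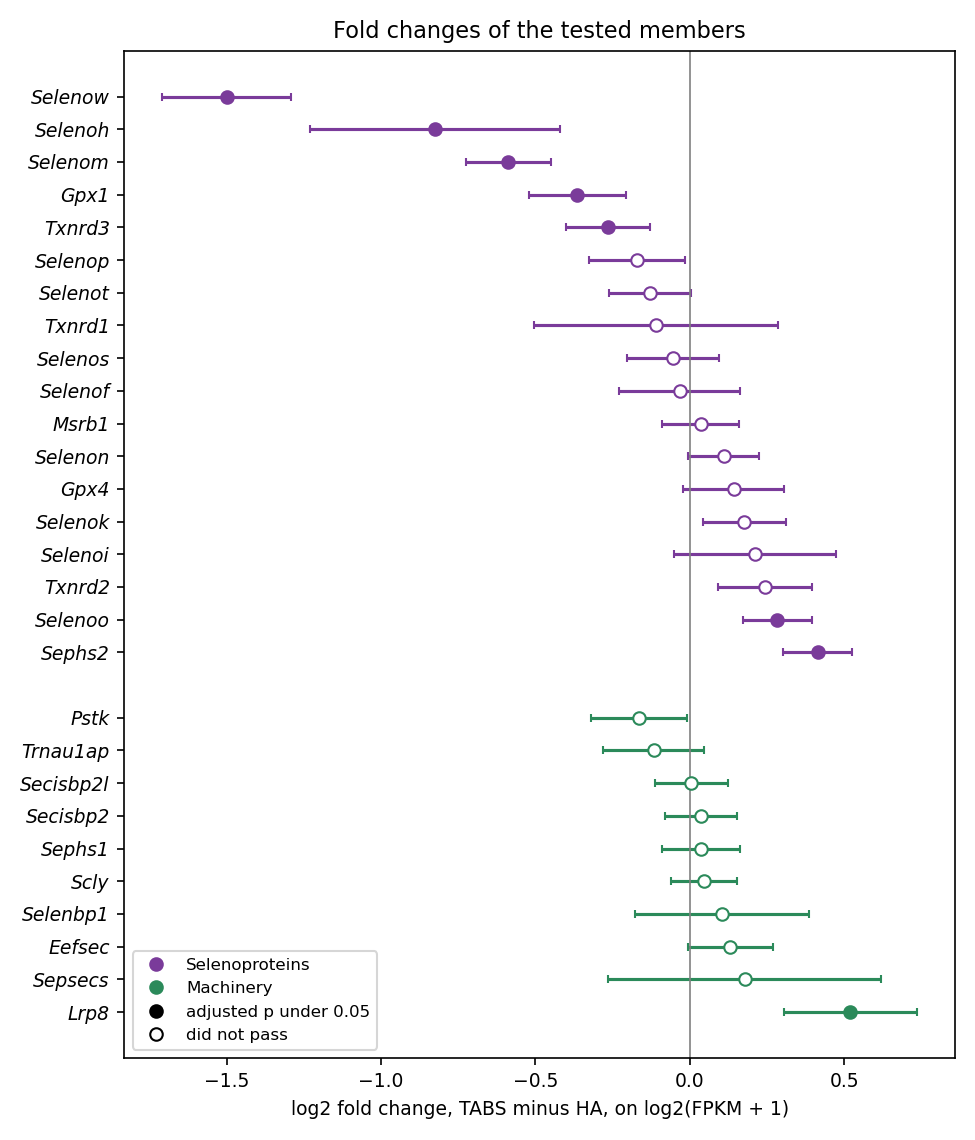
Log2 fold change (TABS minus HA, on log2(FPKM + 1)) of the 28 tested members with limma's 95% confidence interval, n = 4 libraries per group, selenoproteins above and machinery below, filled where adjusted p was under 0.05. Selenow lies farthest to the left at -1.50, and 9 of the 10 machinery genes are open symbols.

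The summed level of the 24 selenoprotein genes was 881, 883, 924 and 867 FPKM in TABS 1 to 4, against 1286, 1184, 1147 and 1099 FPKM in HA 1 to 4. The TABS sums all lay below the HA sums. Selenow made up 11.6% to 13.4% of this sum in TABS and 25.6% to 29.1% in HA. Without Selenow the groups were 777 ± 18.1 FPKM in TABS and 861 ± 39.0 FPKM in HA (SD, n = 4). As a share of each library's summed FPKM, the groups without Selenow overlapped, with TABS 3 at 0.2623% and HA 4 at 0.2614%. The 10 machinery genes together came to 54.5 ± 1.97 FPKM in TABS and 51.7 ± 0.73 FPKM in HA (SD, n = 4).

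Among the small selenoproteins, Selenow, Selenoh and Selenom fell, while Selenot, Selenof and Msrb1 did not pass the test. Selenok (94 codons) and Selenos (190), also small and described below, did not pass either. Selenow (ENSMUSG00000041571, chr7:15917208-15922402), a cytosolic protein abundant in muscle and brain, stood at 102, 108, 124 and 112 FPKM in TABS 1 to 4, against 374, 322, 296 and 282 FPKM in HA 1 to 4. Every TABS library was below every HA library, with a gap wider than the spread within either group. Its means were 112 ± 9.17 FPKM in TABS and 318 ± 40.6 FPKM in HA (SD, n = 4), a log2 fold change of -1.50 ± 0.09 (SE, adjusted p = 0.000172). Only 2 of the 11280 tested genes had a lower fold change, and Selenow passed in each of 19 alternatives (adjusted p up to 0.00774).

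Selenom (ENSMUSG00000075702, chr11:3514684-3517351), which resides in the endoplasmic reticulum, stood at 102, 99.1, 107 and 94.8 FPKM in TABS 1 to 4, against 166, 157, 145 and 141 FPKM in HA 1 to 4. The groups did not overlap, and the log2 fold change was -0.59 ± 0.06 (SE, adjusted p = 0.000987). Selenom, too, passed in each of 19 alternatives. Selenoh (ENSMUSG00000076437, chr2:84669215-84670770), a nucleolar DNA-binding selenoprotein, stood at 12.4, 11.7, 8.38 and 9.07 FPKM in TABS 1 to 4, against 27.9, 16.3, 16.7 and 17.1 FPKM in HA 1 to 4. The groups did not overlap, but HA 1 stood far above the other HA libraries. The log2 fold change of Selenoh was -0.83 ± 0.18 (SE, adjusted p = 0.0274), and -0.65 without HA 1 (adjusted p = 0.0247). The call on Selenoh was lost without TABS 3 (adjusted p = 0.0747), TABS 4 (0.0741) or HA 4 (0.0508), and with no filter on low FPKM (0.0913).

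Selenot, an oxidoreductase of the endoplasmic reticulum and a close relative of Selenow, stood at 33.6 ± 1.93 FPKM in TABS and 36.8 ± 2.54 FPKM in HA (SD, n = 4, log2 fold change -0.13, 95% confidence interval -0.26 to 0.0035, adjusted p = 0.218). Whether Selenow and Selenot differed in response was not tested. The FPKM of Selenow was 2.80 to 3.80 times that of Selenot in TABS libraries and 6.97 to 10.7 times in HA libraries. Selenof, a partner of the folding sensor UGGT1, stood at 79.6, 85.8, 84.4 and 71.0 FPKM in TABS 1 to 4, against 76.8, 72.3, 89.0 and 90.8 FPKM in HA 1 to 4. The Selenof groups overlapped throughout (-0.03, adjusted p = 0.856). Msrb1, which reduces oxidised methionine, stood at 41.2 ± 2.14 FPKM in TABS and 40.2 ± 2.41 FPKM in HA (SD, n = 4, 0.04, 95% confidence interval -0.09 to 0.16, adjusted p = 0.749). Of the 4 genes whose mRNAs are known to be most sensitive to low selenium in rodents, Gpx1, Selenow and Selenoh fell and Msrb1 did not pass. Over all tested genes 2.90% were called lower, and a part of selenium supply was not tested.

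**Figure D2:**
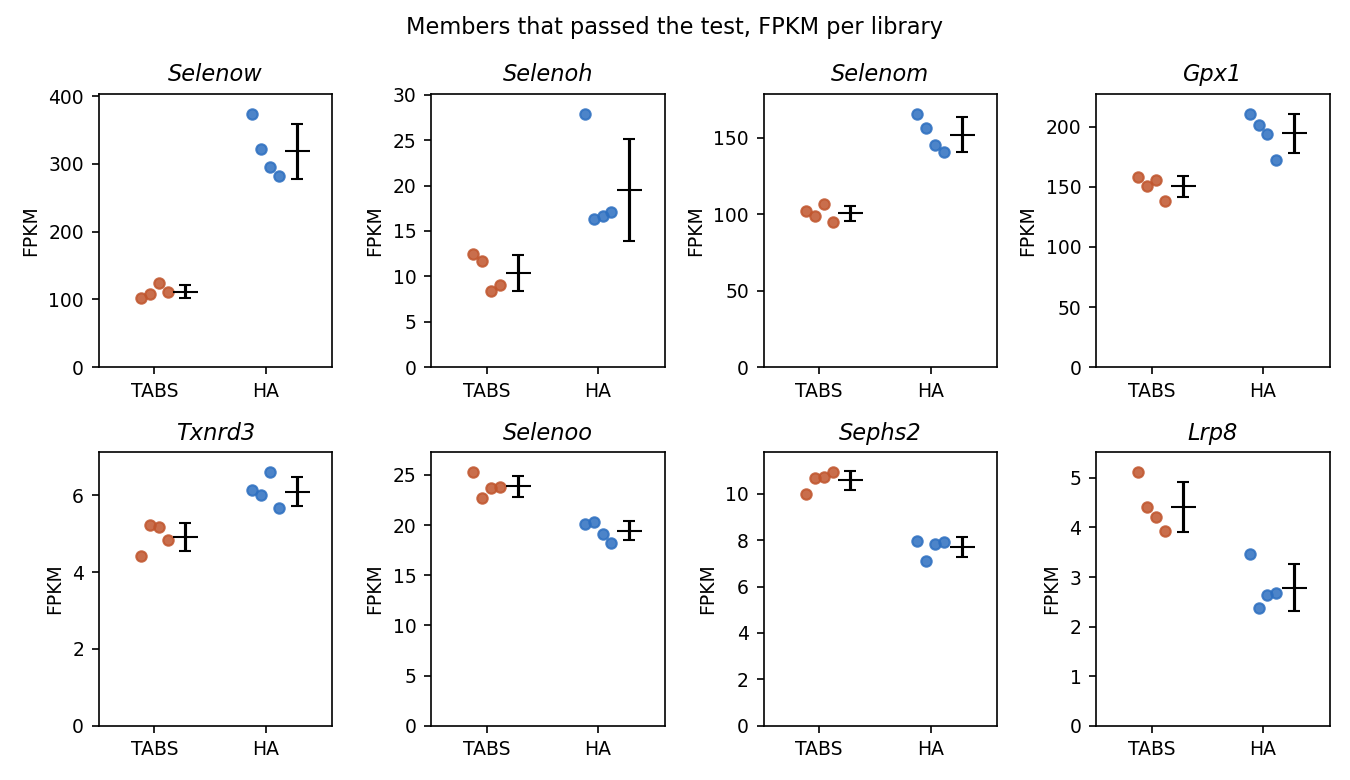
FPKM of the 8 members that passed the test, 1 dot per library (TABS left, HA right), with the mean and SD of 4 libraries beside the dots; each axis starts at 0. All TABS libraries lie below all HA libraries for Selenow, Selenoh, Selenom, Gpx1 and Txnrd3, and above them for Selenoo, Sephs2 and Lrp8.

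Of the glutathione peroxidases, which reduce peroxides with glutathione, Gpx1 fell and Gpx4 did not pass the test. Gpx1 (ENSMUSG00000063856, chr9:108338903-108340343), the main cytosolic form, stood at 158, 150, 155 and 138 FPKM in TABS 1 to 4, against 211, 201, 193 and 172 FPKM in HA 1 to 4. All TABS libraries were below all HA libraries, and the log2 fold change was -0.36 ± 0.07 (SE, adjusted p = 0.016). The call was lost only with no filter on low FPKM (adjusted p = 0.0515) among 19 alternatives. Gpx4, which reduces lipid peroxides in membranes and restrains ferroptosis, stood at 164, 172, 191 and 181 FPKM in TABS 1 to 4, against 179, 165, 153 and 146 FPKM in HA 1 to 4. The Gpx4 groups overlapped (0.14, 95% confidence interval -0.02 to 0.31, adjusted p = 0.27). The FPKM of Gpx1 was 0.763 to 0.963 times that of Gpx4 in TABS libraries and 1.18 to 1.27 times in HA libraries, a difference that was not tested. Reads of Gpx4 can be shared with its processed pseudogene Gpx4-ps2, listed at 43.6 to 53.7 FPKM in TABS and 39.5 to 51.1 FPKM in HA, so both values are uncertain. Gpx2, known from gut epithelium, was listed at 0 in every library, and Gpx3, the plasma form, stayed at or under 0.148 FPKM.

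Among the thioredoxin reductases, which keep thioredoxin reduced, Txnrd3 fell. Txnrd3 (ENSMUSG00000000811, chr6:89643988-89675529), a form with an added glutaredoxin domain best known from testis, stood at 4.430, 5.215, 5.167 and 4.833 FPKM in TABS 1 to 4, against 6.129, 6.001, 6.598 and 5.658 FPKM in HA 1 to 4. The groups did not overlap (-0.26 ± 0.06 SE, adjusted p = 0.0328). The call on Txnrd3 was lost without any of TABS 1, TABS 3, TABS 4, HA 1, HA 2 or HA 3 (adjusted p 0.0578 to 0.0843), and without the filter on low FPKM (0.0756). Txnrd1, the cytosolic form, varied within both groups, at 12.9, 9.03, 8.41 and 13.0 FPKM in TABS 1 to 4 and 13.3, 9.22, 14.6 and 9.94 FPKM in HA 1 to 4 (-0.11, 95% confidence interval -0.50 to 0.28, adjusted p = 0.754). Txnrd2, the mitochondrial form, stood at 3.14 ± 0.20 FPKM in TABS and 2.50 ± 0.28 FPKM in HA (SD, n = 4, 0.24, adjusted p = 0.0615), with all TABS libraries above all HA libraries. Txnrd2 passed after rescaling to TPM (0.34, adjusted p = 0.0385).

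Sephs2 and Selenoo were the selenoproteins that rose. Sephs2 (ENSMUSG00000049091, chr7:127271879-127274055) stood at 9.99, 10.7, 10.7 and 10.9 FPKM in TABS 1 to 4, against 7.99, 7.10, 7.84 and 7.91 FPKM in HA 1 to 4. The groups were well apart, with a log2 fold change of 0.41 ± 0.05 (SE, adjusted p = 0.00185), and the call held in each of 19 alternatives. Its paralog Sephs1, which lacks selenocysteine and does not make selenophosphate, stood at 9.44 ± 0.37 FPKM in TABS and 9.19 ± 0.68 FPKM in HA (SD, n = 4, 0.04, adjusted p = 0.746). Selenoo (ENSMUSG00000035757, chr15:89089084-89100340), a mitochondrial pseudokinase that attaches AMP to proteins, stood at 25.3, 22.7, 23.7 and 23.8 FPKM in TABS 1 to 4, against 20.2, 20.3, 19.1 and 18.2 FPKM in HA 1 to 4. The Selenoo groups did not overlap (0.28 ± 0.05 SE, adjusted p = 0.0112).

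Exons of both genes overlap a gene on the other strand, and whether the counting used strand was not known. Sephs2 shares 792 bases with Gm44729, which was at or under 0.182 FPKM. Selenoo shares 998 bases with Tubgcp6, a gene of the gamma-tubulin complex, which stood at 3.52 ± 0.14 FPKM in TABS and 3.21 ± 0.03 FPKM in HA (SD, n = 4, 0.10, adjusted p = 0.187).

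The remaining selenoproteins of the endoplasmic reticulum did not pass the test. Selenon, which regulates calcium uptake by SERCA pumps, stood at 35.6 ± 0.79 FPKM in TABS and 33.0 ± 2.20 FPKM in HA (SD, n = 4, 0.11, adjusted p = 0.229). Selenok and Selenos, membrane proteins of the degradation pathway for misfolded proteins, stood at 32.1 and 37.8 FPKM in TABS and 28.4 and 39.2 FPKM in HA on average (adjusted p = 0.107 and 0.668). Selenok passed after rescaling to TPM (0.22, adjusted p = 0.0469). Selenoi, which makes the membrane lipid phosphatidylethanolamine, was low, at 2.05 ± 0.55 FPKM in TABS and 1.61 ± 0.10 FPKM in HA (SD, n = 4, adjusted p = 0.308). Of the 8 selenoproteins assigned to the endoplasmic reticulum, 7 were tested, 1 fell (Selenom) and 0 rose, beside 2.90% and 4.49% of all tested genes.

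Selenop, the secreted carrier that delivers selenium to other cells and holds 10 UGA codons in its annotated transcript, stood at 21.7, 21.8, 22.7 and 20.3 FPKM in TABS 1 to 4, against 21.5, 24.1, 25.3 and 27.2 FPKM in HA 1 to 4. HA 1 lay among the TABS libraries, and the gene did not pass (-0.17 ± 0.07 SE, adjusted p = 0.17). Without HA 1 it did (-0.23, adjusted p = 0.0482). Selenop shares 439 exon bases with the opposite-strand gene Ccdc152, which was at or under 0.436 FPKM. Lrp8 (ENSMUSG00000028613, chr4:107802261-107876840), also a reelin receptor, takes up selenoprotein P in brain and testis. It stood at 5.11, 4.42, 4.21 and 3.92 FPKM in TABS 1 to 4, against 3.46, 2.37, 2.64 and 2.68 FPKM in HA 1 to 4. All TABS libraries were above all HA libraries, and Lrp8 had the highest fold change of the 28 tested members, 0.52 ± 0.10 (SE, adjusted p = 0.0136). It passed in each of the 18 alternatives that tested it. Lrp2, the kidney receptor for selenoprotein P, averaged 0.0012 FPKM in TABS and 0.0034 FPKM in HA and was not tested.

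The deiodinases, which activate or inactivate thyroid hormone, were under the filter and were not tested. Dio2, which forms the active hormone inside cells, nevertheless stood at 0.624, 0.619, 0.497 and 0.675 FPKM in TABS 1 to 4, against 0.202, 0.201, 0.294 and 0.437 FPKM in HA 1 to 4. The TABS values all lay above the HA values, at a level where few fragments are counted. Dio3, which inactivates the hormone, ranged from 0.085 to 0.147 FPKM in TABS and from 0.066 to 0.223 FPKM in HA, and Dio1 was at or under 0.028 FPKM. Selenov, known from testis, was listed at 0 in every library. In all, 6 selenoprotein genes (Gpx2, Gpx3, Dio1, Dio2, Dio3 and Selenov) were not tested.

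None of the genes that make, insert or recycle selenocysteine passed the test other than Sephs2, described above. Pstk averaged 1.09 FPKM in TABS and 1.34 FPKM in HA (-0.16, 95% confidence interval -0.32 to -0.0085, adjusted p = 0.185), and 4652 of its 7914 exon bases are shared with the opposite-strand gene Ikzf5. Sepsecs stood at 2.86, 2.85, 2.50 and 2.68 FPKM in TABS 1 to 4, against 1.36, 1.63, 3.14 and 3.56 FPKM in HA 1 to 4, so that the HA libraries lay on either side of TABS (adjusted p = 0.631). Secisbp2 and its paralog Secisbp2l had log2 fold changes of 0.04 and 0.0048 (adjusted p = 0.733 and 0.97), with 95% confidence intervals of -0.08 to 0.15 and -0.11 to 0.12. Eefsec had 0.13 (adjusted p = 0.231) and Trnau1ap, a protein bound to the selenocysteine tRNA, -0.12 (adjusted p = 0.361). Scly, which frees selenium from selenocysteine for reuse, had 0.05 (adjusted p = 0.598), and Selenbp1, which binds selenium but holds no selenocysteine, had 0.10 (adjusted p = 0.66). Eefsec had the highest level of the machinery, 12.8 ± 0.99 FPKM in TABS and 11.6 ± 0.70 FPKM in HA (SD, n = 4), below 13 of the selenoproteins.

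**Figure D3:**
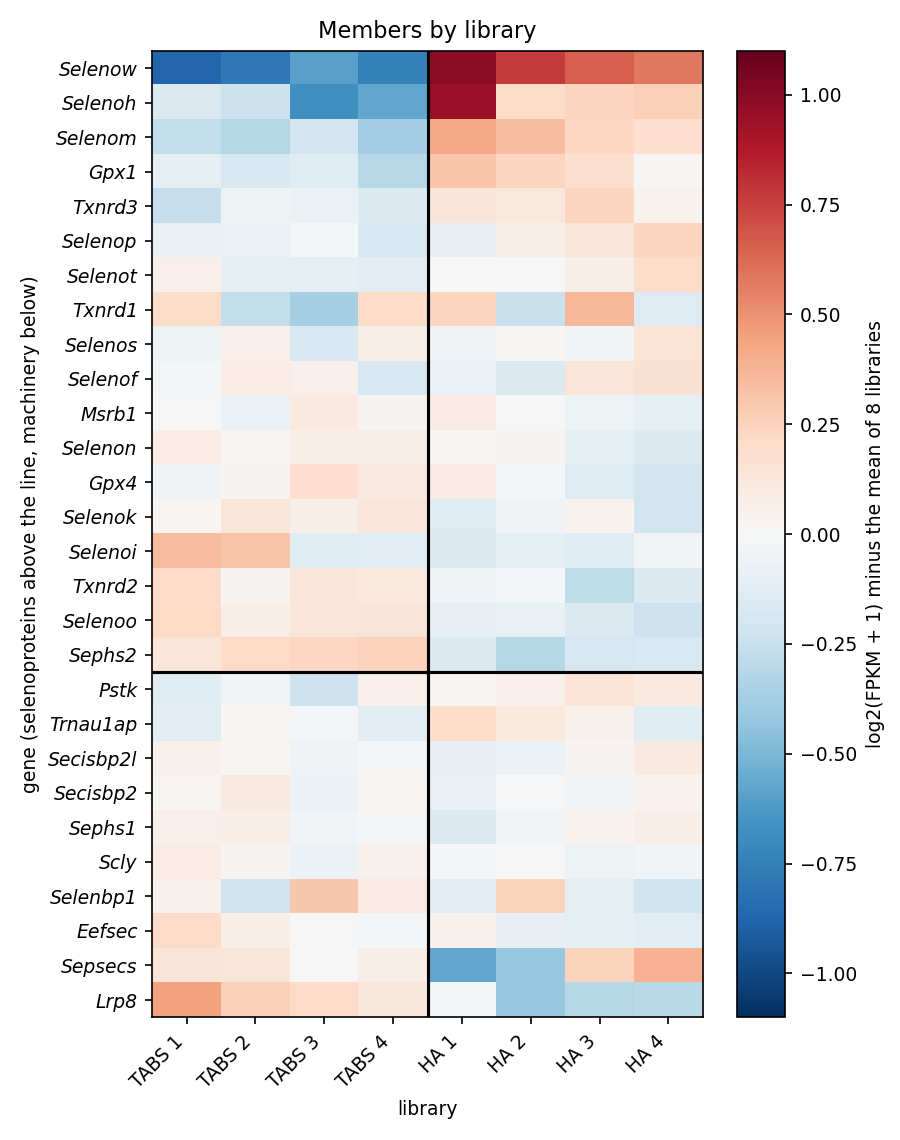
Level of the 28 tested members in each library as log2(FPKM + 1) minus the gene's mean over the 8 libraries, TABS columns left and HA columns right, selenoproteins above the line and machinery below. Selenow, Selenom and Gpx1 are lower in each TABS column than in any HA column, and Sepsecs and Txnrd1 differ among libraries of the same group.

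Within HA, Selenow, Selenom and Gpx1 were each highest in HA 1 and lowest in HA 4. So were Gpx4, Msrb1, Eefsec and Trnau1ap, which did not pass. Other members, among them Selenop, Selenot and Sepsecs, were lowest in HA 1 and highest in HA 4. GC content, in each gene's longest transcript, was 51.8% (Trnau1ap) to 60.2% (Gpx4) in the genes named as highest in HA 1. It was 39.3% to 43.9% in Selenop, Selenot and Sepsecs. Secisbp2, also lowest in HA 1 and highest in HA 4, had 52.3%. HA 4 also had the highest share of summed FPKM from mitochondrial genes, 14.5%, against 12.1% in HA 1. The part of the mitochondrial share in the results was not tested, and calls after a correction for GC content and length are given below. TABS libraries had mitochondrial shares of 10.2% to 12.2%.

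The fold changes of the selenoprotein mRNAs were set beside the place of the UGA, which the gene list did not use. In 14 of the 24 genes the first UGA lay more than 50 bases before the last exon junction, and in 10 it lay nearer, in the last exon or in a single exon. Of the 10 tested genes with more than 50 bases, 4 fell (Gpx1, Selenoh, Selenom and Selenow) and 0 rose, with a median log2 fold change of -0.15. Of the 8 other tested genes, 1 fell (Txnrd3) and 2 rose (Sephs2 and Selenoo), with a median of 0.11. Over all tested genes 2.90% were called lower and 4.49% higher. A difference between these sets was not tested. Distance alone did not order the genes. Selenot, with 470 bases from UGA to junction, Selenop (357), Gpx4 (342), Selenon (216), Txnrd2 (83) and Selenof (78) did not pass. Gpx1 (105), Selenom (135), Selenoh (136) and Selenow (243) fell. Msrb1 had 34 bases.

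**Figure D4:**
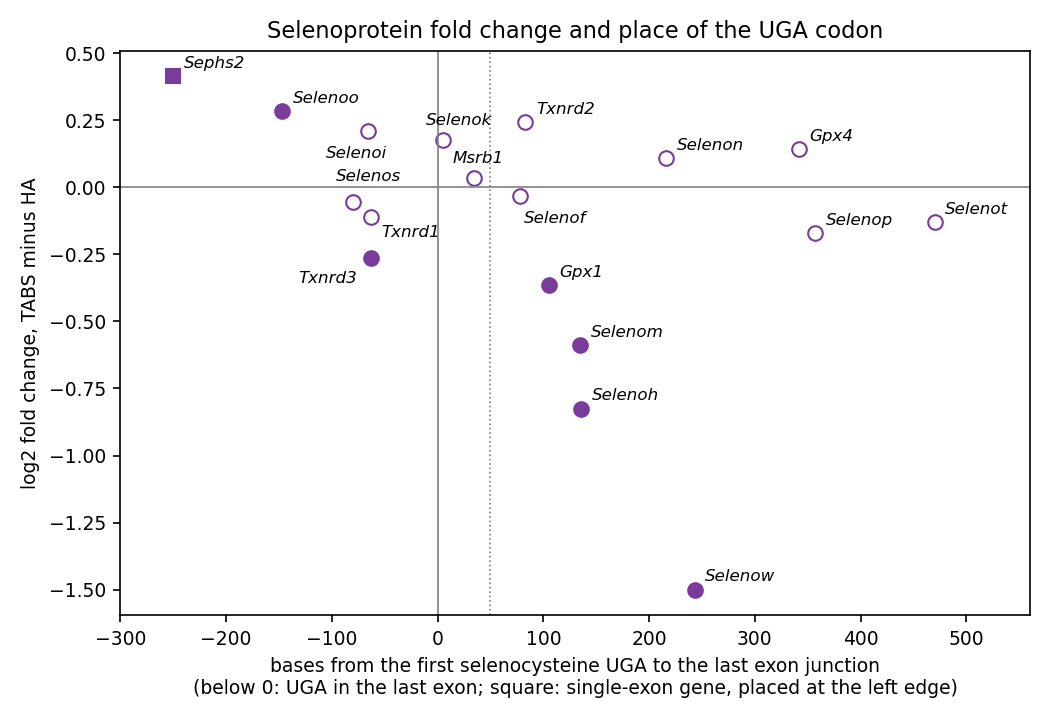
Log2 fold change (TABS minus HA, on log2(FPKM + 1)) of the 18 tested selenoproteins against the number of bases from the first UGA to the last exon junction, filled where adjusted p was under 0.05, with a dotted line at 50 bases; the single-exon gene Sephs2 is a square at the left edge. The genes that fell lie to the right of the dotted line except Txnrd3, and the genes that rose lie to the left of 0.

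A TGT codon 3 codons before the UGA was found in 6 of the 24 selenoprotein genes, and no gene had TGC there. Of the 5 tested, 3 fell (Selenow, Selenoh and Selenom), 1 rose (Selenoo) and 1 did not pass (Selenot), with a median log2 fold change of -0.59. Of the 13 tested genes without it, 2 fell and 1 rose, with a median of 0.04. Of the tested genes with G as the base after UGA, 3 of 10 fell and 1 rose, and with another base 2 of 8 fell and 1 rose. These splits were not tested, and over all tested genes 2.90% were called lower and 4.49% higher. The mRNAs that fell furthest had 736 bases for Selenow, 783 for Selenoh, 707 for Selenom and 1072 for Gpx1 in the transcripts used. Selenom, Selenow and Selenoh had the shortest of the 24 transcripts used, and a part of length was not tested. Gpx4 (959 bases), shorter than Gpx1, did not pass, nor did Selenos (1191) or Msrb1 (1211). Txnrd3, which fell, had 2836 bases. After each library was corrected for the GC content and length of each gene's longest transcript, the counts were again 5 lower and 2 higher. The log2 fold changes were then -1.49 for Selenow, -0.80 for Selenoh, -0.61 for Selenom, -0.37 for Gpx1 and -0.30 for Txnrd3.

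Counts of calls among genes that work with the selenoproteins stand beside the 7.38% called over all tested genes. Of the 7 relatives that carry cysteine in place of selenocysteine, 4 were tested and 0 passed, with Gpx7 at 31.0 FPKM in TABS and 35.4 FPKM in HA (adjusted p = 0.144), and Gpx8 at 65.2 FPKM in TABS and 74.4 FPKM in HA (0.11). Of 8 genes of thioredoxin and glutathione, 0 passed. Txn1, the main cytosolic thioredoxin, averaged 176 FPKM in TABS and 171 FPKM in HA, and Gsr, which regenerates glutathione, 15.8 FPKM in TABS and 15.3 FPKM in HA. Of 14 genes for SECIS-binding and other RNA-binding proteins, seryl-tRNA synthesis and nonsense-mediated decay, 1 fell and 0 rose. The 1 was Ncl, nucleolin, which binds some SECIS elements, at 18.9 FPKM in TABS and 23.4 FPKM in HA (-0.29, adjusted p = 0.0265). Upf1, the central helicase of nonsense-mediated decay, averaged 25.9 FPKM in TABS and 23.8 FPKM in HA (0.12, adjusted p = 0.0814), with all TABS libraries above all HA libraries. None of 7 tested partners of selenoproteins in the endoplasmic reticulum passed, nor did any of the 4 tested of 5 genes around the lipid step of Selenoi.

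The 8 libraries summed to 304893 to 307263 FPKM in TABS and 312629 to 317439 FPKM in HA, and the closest library to each, by correlation, was of the same group. All 9 osteoblast markers were tested, with a summed level of 4970 to 5523 FPKM in TABS and 4792 to 5011 FPKM in HA. Of these, 1 rose, Spp1 (3305 FPKM in TABS and 2431 FPKM in HA), and 5 fell (Ibsp, Alpl, Sp7, Sparc and Col1a1). Over all tested genes 2.90% were called lower and 4.49% higher. Ibsp, bone sialoprotein, stood at 14.5 FPKM in TABS and 50.3 FPKM in HA. Alpl was kept by the filter through HA alone, at 0.373 to 0.518 FPKM in TABS and 1.131 to 1.798 FPKM in HA. Summed markers of macrophages (4 genes), endothelium (3), adipocytes (3) and muscle (3) stayed under 1 FPKM in every library, with Kdr, Myod1 and Myog listed at 0. Of 3 cartilage markers, Col2a1 rose, Sox9 did not pass and Acan was at or near 0 (sum 40.8 to 43.4 FPKM in TABS and 37.0 to 41.7 FPKM in HA). The part of these shifts in the selenoprotein results was not tested.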

How the data were processed

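The authors deposited 1 FPKM value per gene and library, and replicates were not pooled. Per the submitters' processing notes, fastp, STAR, DESeq2 and the mouse build GRCm38 were used. The sources used here give no versions, roles, annotation or strandedness. Per the labels' protocols, RNA came from TRIzol and NEBNext Ultra libraries were read as pairs of 150 bases.

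Columns were matched to samples by library name. Of 55335 identifiers, 55154 were found in GENCODE M21 (GRCm38), which gave symbols, coordinates and selenocysteine codons. The codon was taken from 1 protein-coding transcript per gene, preferring the principal one. Genes with at least 1 FPKM in at least 4 of 8 libraries (11280) were taken to log2(FPKM + 1), where the pseudocount of 1 understates changes of low genes. TABS and HA were compared by limma 3.58.1 (R 4.3.3), two-sided, with moderated variances following the level and no block. The fit was tested on simulated data with noise drawn independently for each gene, which cannot test for variation shared among genes. SD is between libraries of a group. Members were called in limma's fit over all genes, never over the list alone.

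The table gives no read totals. In low single-exon genes 22.4% to 36.7% of values were whole multiples of 1 step (within 0.02), so fragments were not recovered, depth is unknown and no count test was run.

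The members, lists and splits were chosen with earlier results of these data known. All 34 members are accounted for; members that passed and the 5 with the highest mean FPKM are given in every library, and Selenop, Sepsecs, Txnrd1 and Dio2 were added after their values were seen. Pathway genes are named where they passed; Gpx7, Gpx8, Txn1, Gsr, Upf1 and Lrp2 were chosen after their values were seen. Alternatives were another pseudocount, other filters, 3 other scalings, other variance models, a correction of each library for GC content and length, the replicate number as a block, Sephs2 counted as machinery, and each library left out.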

Additional observations from a re-analysis of the deposited data

Results flagged for a closer look

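Of 56 sets of 4 libraries examined (28 tested members in 2 groups), 4 held a library that stood apart from the others of its group, by a gap to the nearest library of more than 0.829 of the group's range; chance flags about 1 set in 20. Selenot in TABS had 36.4 FPKM in TABS 1 and 32.4 to 32.8 in the others (gap 0.91 of the range). Selenoh in HA had 27.9 FPKM in HA 1 and 16.3 to 17.1 in the others (0.936). Sephs2 in HA had 7.10 FPKM in HA 2 and 7.84 to 7.99 in the others (0.83). Eefsec in HA had 12.6 FPKM in HA 1 and 11.1 to 11.3 in the others (0.866).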

How the results depend on the processing

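Over all genes, 833 calls became 542 with no filter on low FPKM, 230 with the replicate number as a block, 319 with the block and the GC and length correction, and 406 to 704 with 1 library left out. The selenoproteins called lower (5) became 2 with no filter and 3 to 5 with 1 library left out. Those called higher (2) became 4 after rescaling to TPM, 1 with the block (Selenoo, adjusted p = 0.0589; Txnrd3 also missed the threshold with it, 0.0864) and 1 with Sephs2 counted as machinery. The machinery called higher (1) became 0 with a filter of 5 FPKM, where Lrp8 is not tested, and 2 with Sephs2 added, and its median (0.04) became 0.086 after rescaling to TPM. Of 524 values of members under alternatives, 490 kept direction and side of the threshold. The direction changed in 17, all in genes that did not pass. Selenof was 0.0066 after rescaling to TPM, 0.012 with the correction, with or without the block, and -0.093 to 0.023 with 1 library left out. Secisbp2 was -0.0103 with the correction, with or without the block. Secisbp2l was -0.0062 with median-of-ratios scaling, -0.0034 with quantile normalization, -0.013 with the correction, with or without the block, and -0.025 to 0.042 with 1 library left out. Sephs1 was -0.0073 to 0.066 with 1 library left out. Replicate numbers are not known to pair libraries: same-numbered libraries deviated together with correlations of -0.104 to 0.105, and 2 of 8 correlated best with their own number across groups. The cause of these shifts was not tested. FPKM without read totals limits what can be said of genes under 1 FPKM, such as Dio2.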

Other observations

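Selenoi stood at 2.57 and 2.49 FPKM in TABS 1 and 2 and at 1.56 and 1.59 FPKM in TABS 3 and 4, against 1.52 to 1.74 FPKM in HA. Sephs2 and Sephs1, the selenophosphate synthetase and its paralog, were expressed at nearly equal levels, with an FPKM ratio of Sephs2 to Sephs1 of 1.03 to 1.19 in TABS libraries and 0.783 to 0.962 in HA libraries. Together Selenow, Gpx1, Gpx4, Selenom and Selenof held 68.8% to 71.6% of the summed selenoprotein FPKM in TABS and 75.6% to 78.3% in HA.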
